A study of Mus musculus with 12 samples.

Results

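The subunits of the mitochondrial respiratory chain and of ATP synthase were followed in mouse macrophages across 4 amounts of interferon gamma (IFNγ). Members were taken by name: every entry of the expression table with a gene symbol that begins with Nduf, Sdh, Uqcr, Cox4 to Cox8, Atp5, mt-Nd, mt-Co, mt-Cyt or mt-Atp, leaving out pseudogenes. The rule found 99 of 46729 entries, which carry 108 symbols because 7 of them merge overlapping genes. Some of the names stand for assembly factors (Ndufaf, Sdhaf). These were kept apart from the 80 entries of nuclear subunits, as were Atp5s and Atp5sl, which were not counted as subunits.

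The cells were macrophages of C57BL6 mice, differentiated from bone marrow for 10 days with interleukin-3 and L-929 conditioned medium, which supplies colony-stimulating factor 1. They received fresh medium for 8 h with no IFNγ (untreated), or with IFNγ at 0.2, 2 or 20 U/ml. The unit of the highest dose is labelled without a volume and was read as U/ml. Each group has 3 of the 12 libraries, nothing says whether these are separate animals or cultures, and the table gives 1 value per group, so no difference below has a replicate check, an error or a p-value.

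The respiratory chain passes electrons from NADH (complex I) and succinate (complex II) through ubiquinone, complex III and cytochrome c to oxygen at complex IV, and the proton gradient built on the way drives ATP synthase, also called complex V. Most subunits are nuclear genes, while a small core of complexes I, III, IV and V is encoded in the mitochondrial genome, so each of these complexes needs both genomes. Macrophages activated by inflammatory signals are known for a shift of energy metabolism towards glycolysis, and the chain is also a source of reactive oxygen species in these cells.

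The promoters below belong to members named in the results and are shown as a description of sequence. Of the 108 member symbols, 77 matched a promoter entry of RefSeq (build GRCm38.p6), and up to 250 bases before each gene's start were searched on both strands for the motifs of NRF1 and of ETS factors. The motif of NRF1, a factor known for the control of respiratory genes, was GCGCA, any base, then GCGC, and that of ETS factors was CCGGAAG. The NRF1 letters stood in 14 of 77 member promoters (18.2%) against 4.23% of all 27025, and the ETS letters in 15 (19.5%) against 7.83%. The 27025 were not limited to genes expressed in these cells, so they are not a matched background. A match is a description of letters and not a site of binding. The windows printed here leave out bases that an annotated exon covers, and capitals mark an NRF1 or ETS match, for ETS as its reverse complement CTTCCGG. Atp5h was counted for the ETS letters as well, but these do not lie within its printed window. Atp5e had the highest ratio of all members at 0.2 U/ml, and Atp5h and Uqcrh had ratios of 0.76 and 0.72 there. Ndufa4 and Cox7a1, with no match, were at 0.09 and 0.33 at that dose and at -0.38 and -1.15 at 20 U/ml. At 20 U/ml Atp5e, Atp5h and Uqcrh were below 0 as well, at -0.39, -0.29 and -0.10. The genes shown were chosen as examples, so they do not compare members with and without a match.
Atp5e, chr2:174464106-174464351, minus strand: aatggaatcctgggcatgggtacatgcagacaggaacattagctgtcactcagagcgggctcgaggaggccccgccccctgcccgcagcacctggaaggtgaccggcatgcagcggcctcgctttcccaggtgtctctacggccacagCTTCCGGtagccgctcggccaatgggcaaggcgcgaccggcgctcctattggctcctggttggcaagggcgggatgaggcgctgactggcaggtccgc
Atp5h, chr11:115419963-115420127, minus strand: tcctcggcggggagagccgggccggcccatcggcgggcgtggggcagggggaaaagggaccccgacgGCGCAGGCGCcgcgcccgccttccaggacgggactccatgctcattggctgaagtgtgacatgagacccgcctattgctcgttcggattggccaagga
Uqcrh, chr4:116075072-116075268, minus strand: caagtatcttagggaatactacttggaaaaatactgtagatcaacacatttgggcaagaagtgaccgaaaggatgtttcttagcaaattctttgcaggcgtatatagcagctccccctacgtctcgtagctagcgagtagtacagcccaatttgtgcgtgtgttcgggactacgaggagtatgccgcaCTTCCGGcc
Ndufa4, chr6:11907498-11907700, minus strand: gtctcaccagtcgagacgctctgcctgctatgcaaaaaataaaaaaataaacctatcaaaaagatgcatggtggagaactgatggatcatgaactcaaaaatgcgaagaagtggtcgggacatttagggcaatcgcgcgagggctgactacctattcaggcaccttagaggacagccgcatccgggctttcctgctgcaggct
Cox7a1, chr7:30183921-30184143, plus strand: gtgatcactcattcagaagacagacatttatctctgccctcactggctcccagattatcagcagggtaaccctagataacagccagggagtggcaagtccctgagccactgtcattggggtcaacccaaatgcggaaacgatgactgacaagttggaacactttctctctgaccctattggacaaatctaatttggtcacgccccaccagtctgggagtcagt
Among the members past the size rule at 0.2 U/ml, Ndufa5 and Atp5k hold the NRF1 letters, Atp5e and Ndufb7 the ETS letters and Ndufv1 neither. Ndufa2, which also passed, is not among the members found with either. The NRF1 letters also stood in Ndufb4, Sdha, Sdhd, Atp5c1 and Atp5g2, whose ratios at that dose were below 0, so a match did not go with a higher value in each case.

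Members were among the abundant transcripts of these cells. Values are FPKM, in which fragments are divided by transcript length and scaled to library size. Levels of different genes can thus be compared only roughly. Single-gene members had a median length of 711 nt, against 1892 nt over all such entries. The part of length in the levels was not tested. A ratio below is the difference of log2(FPKM + 1), and an entry counts as higher or lower when that ratio is at least 1 in size, the size rule. Of the 99 entries, 92 had a mean of at least 1 FPKM with no group at 0, as had 11580 entries in the whole table. Where 4 values are listed, they stand in the order untreated, then 0.2, 2 and 20 U/ml. The members' median was 218, 252, 214 and 234 FPKM, beside 12.3, 12.9, 12.8 and 13.3 FPKM over all 11580 entries. Together the members held 4.68%, 4.86%, 4.31% and 3.78% of all summed FPKM, and the nuclear subunit entries alone 3.80%, 4.26%, 3.66% and 3.11%. The whole sum itself differed between groups, at 769698, 1025970, 783701 and 904993 FPKM, and a share moves with it. The macrophage label matched its markers: all 7 macrophage marker entries were expressed, with sums of 2157 to 2871 FPKM, while 5 of 5 T and NK, 4 of 4 neutrophil, 4 of 4 erythroid, 3 of 4 B cell and 3 of 4 stromal markers stayed under 1 FPKM in every group. The exceptions were highest in the group given 0.2 U/ml: Pecam1, an endothelial and leukocyte gene, was at 0.691, 3.41, 0.720 and 0.941 FPKM, and the B cell gene Ms4a1 at 0.242, 1.09, 0.299 and 0.231 FPKM. That group also had the highest sum of FPKM over the whole table, 1025970 against 769698 in untreated cells, and the part of either in the values at 0.2 U/ml was not tested. Irf1, a transcription factor gene that responds to IFNγ, was at 34.1, 89.1, 293 and 511 FPKM. In such bulk RNA, fewer cells and less RNA per cell cannot be told apart.

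The remaining 7 entries had no usable ratio. Cox7b2, Cox8b and Cox8c, tissue isoforms of complex IV known from testis or from heart and skeletal muscle, were listed at 0 in all 4 groups, as were mt-Nd6 and the merged entry that holds mt-Co1, mt-Co2, mt-Co3, mt-Atp6, mt-Atp8, mt-Nd3, mt-Nd4, mt-Nd4l and mt-Nd5. Since cells with mitochondria use those genes, a 0 there can be a failed estimate, and it says nothing of expression. Ndufa4l2, a hypoxia-inducible relative of Ndufa4, reached at most 0.041 FPKM. Cox4i2, the lung and hypoxia form of subunit 4, was at 0.603, 0.930, 0.567 and 1.78 FPKM, below the filter on the mean. Cox4i1 and Ndufaf8 were not analysed here.

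**Figure D1:**
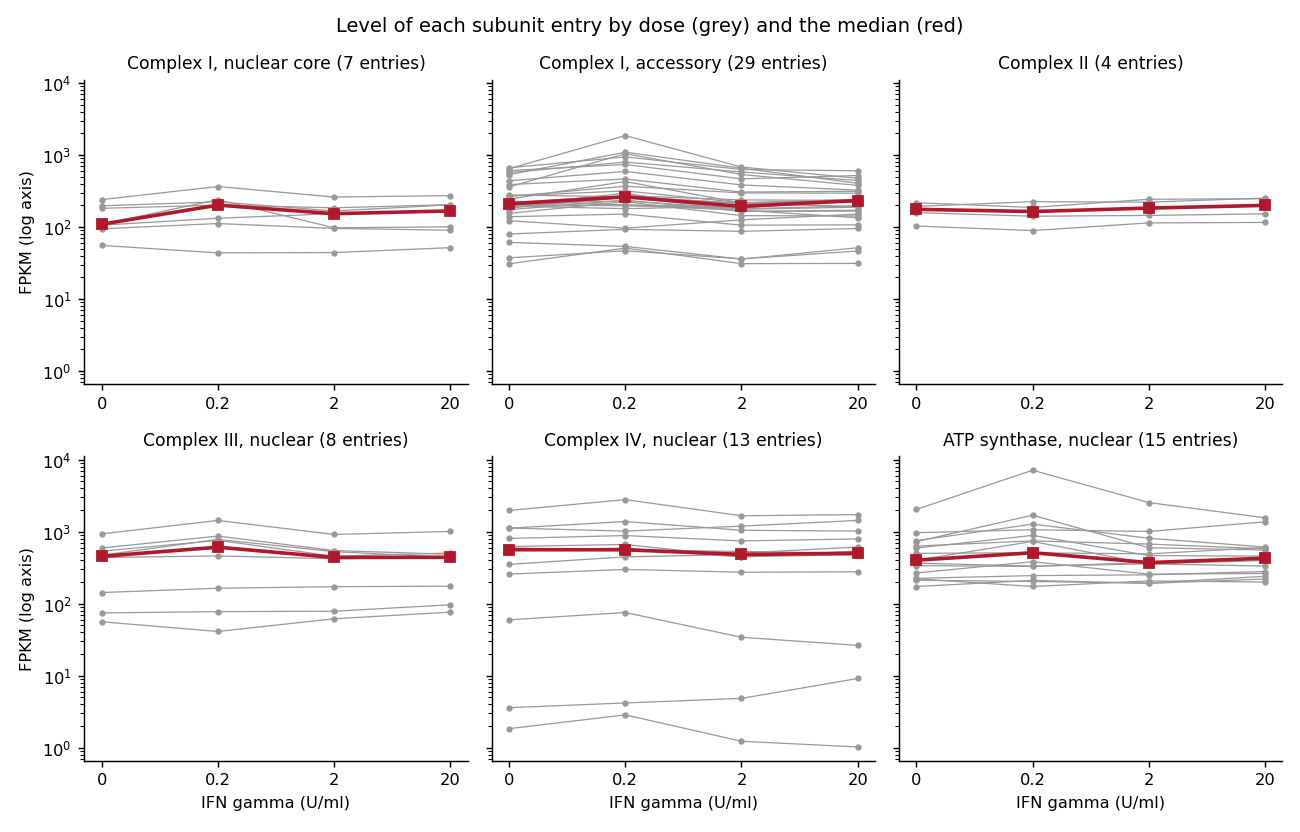
FPKM (log axis) of each nuclear subunit entry used, in grey, and the median, in red, against IFNγ dose in U/ml, with doses spaced evenly and 1 panel per complex. Each point is the 1 value of a group; Atp5e of ATP synthase reached 7134 FPKM at 0.2 U/ml, while most lines stayed nearly level.

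The lowest dose was the one with most members past the size rule. At 0.2 U/ml, 6 of 92 members were higher by the size rule and 0 lower, beside 5.23% higher and 0.328% lower of all 11580 entries, and beside 10.7% higher among the 1309 entries with a mean of at least 100 FPKM. The members' median ratio was 0.21, against 0.00 over all entries and 0.18 over the 1309 abundant ones, and 66 of 92 members lay above 0. At the smaller size of 0.5, 20 members were higher, where 14.2% of all entries and 26.9% of abundant entries were, and 1 was lower, where 2.5% and 1.3% were. The share of 6 in 92 (6.52%) is near the background of all entries, and all 6 were among the 68 abundant members (8.82%), below the share of abundant entries. The 0 lower members stand beside 0.153% of abundant entries. The median did not keep its sign across scalings: it was 0.091 after upper-quartile scaling and -0.051 after quantile normalization, which shifted the median of all entries by -0.10 each.

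The 6 members higher at 0.2 U/ml were subunits of complex I and ATP synthase. Atp5e, the epsilon subunit of the F1 sector (chromosome 2, 174461072 to 174464105, minus strand, GRCm38), was at 2039, 7134, 2535 and 1559 FPKM. Its ratio at 0.2 U/ml was 1.81, and the value at that dose stood far above those of the other groups. Atp5k, subunit e of the membrane sector (chromosome 5, 108433244 to 108434448), was at 728, 1692, 599 and 556 FPKM, a ratio of 1.22. It too was high at 0.2 U/ml and lowest at 20 U/ml.

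Among complex I members, Ndufa5, an accessory subunit of the matrix arm (chromosome 6, 24518666 to 24528013), was at 361, 1042, 537 and 379 FPKM, a ratio of 1.53 at 0.2 U/ml. Ndufa2, another accessory subunit of that arm, was at 645, 1862, 681 and 475 FPKM, also a ratio of 1.53. Ndufv1, the core subunit that binds NADH and flavin mononucleotide (chromosome 19, 4007384 to 4012806), was at 109, 240, 97.7 and 101 FPKM, a ratio of 1.13. Ndufb7, an accessory subunit of the membrane arm, was at 535, 1095, 657 and 406 FPKM, a ratio of 1.03. In all 4 genes the value at 0.2 U/ml was the highest, and Ndufa5 alone stayed higher than untreated by over 0.5 at 2 U/ml, at 0.57. Under quantile normalization Atp5k (0.85), Ndufv1 (0.89) and Ndufb7 (0.74) no longer passed, and under upper-quartile scaling Ndufb7 was at 0.92.

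Transcript length moved with these ratios. Over 85 single-gene members, the ratio at 0.2 U/ml had a Spearman rho of -0.41 with the median annotated transcript length, 0.39 with GC content and 0.42 with the mean level. Over all 10530 such entries the same values were -0.11, 0.07 and 0.09, and these are descriptions across genes of the same groups. The members' median length was 711 nt against 1892 nt over all. Members of 200 to 500 nt had a median ratio of 0.47 (12 entries), those of 500 to 700 nt 0.31 (29), those of 700 to 1000 nt 0.13 (18), those of 1000 to 2000 nt 0.10 (20) and longer ones 0.02 (6). Medians of all entries in the same bins were 0.17, 0.05, 0.05, 0.02 and -0.04. With a trend on length and GC content removed, the members' median at 0.2 U/ml was 0.034 and 4 members passed, with Atp5e at 1.5, Ndufa5 at 1.31 and Ndufa2 at 1.30. With the mean level in the trend as well, the median was -0.050, and the 3 members that passed were Ndufa5 (1.12), Atp5e (1.07) and Ndufa2 (1.05).

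**Figure D2:**
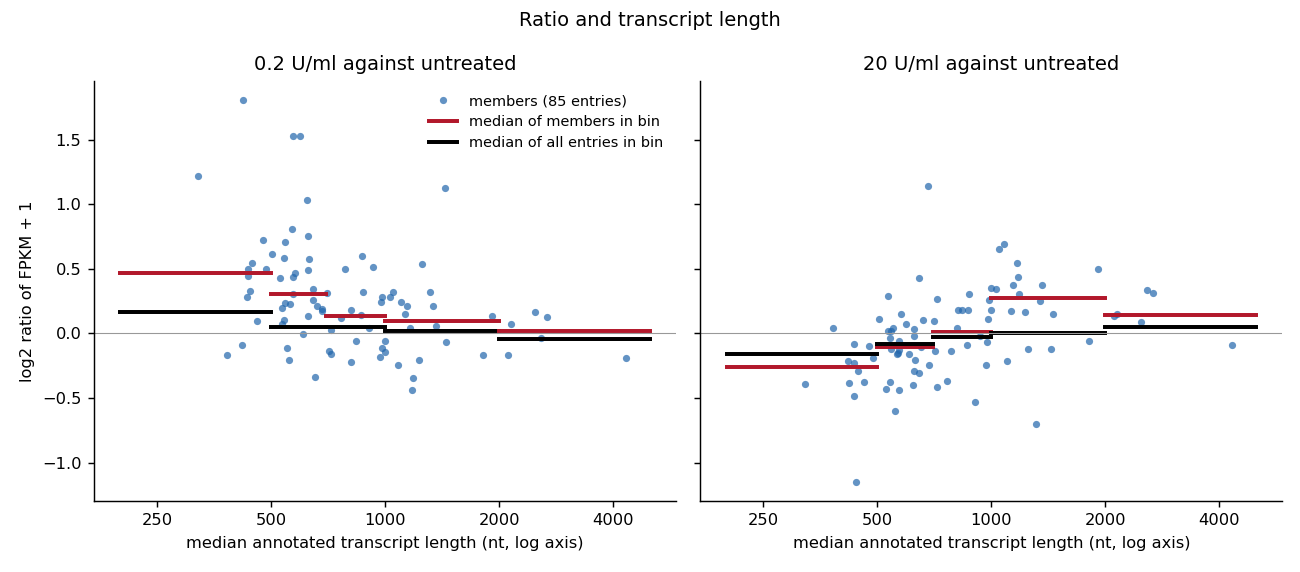
Log2 ratio of FPKM + 1 against median annotated transcript length in nt (log axis) for 85 single-gene members at 0.2 and 20 U/ml, with medians of members (red) and of all entries (black) in 5 length bins. The members' medians go from 0.47 down to 0.02 at 0.2 U/ml, and from -0.26 in the shortest bin to 0.28 at 1000 to 2000 nt and 0.14 beyond at 20 U/ml.

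At 2 U/ml no member passed the size rule in either direction, where 2.5% of all entries were higher and 0.76% lower. The median ratio of members was -0.07 against 0.01 over all entries. Past the smaller size of 0.5 lay 2 members on the higher side, Ndufa5 (0.57) and Ndufs3 (0.53), where 6.9% of all entries did. The 4 on the lower side, beside 5.18% of all entries, were mt-Cytb (-0.80), Cox7a1 (-0.79), Ndufb4 (-0.75), an accessory subunit of the membrane arm, and Ndufaf2 (-0.55), an assembly factor. Ndufb4, named after its values were seen, was at 61.3, 53.9, 36.0 and 51.6 FPKM.

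At 20 U/ml, where Irf1 was highest, members stayed close to untreated values. By the size rule 1 member was higher and 1 lower, beside 6.51% and 2.94% of all entries, and the median ratio was -0.02 against 0.01. At the smaller size of 0.5, 4 members were higher and 5 lower, beside 15.2% and 12.4% of all entries. The other 83 of 92 lay within 0.5 of untreated (90.2%), against 72.4% of all entries. The abundant members did so in 65 of 68 cases (95.6%), against 72.1% of the 1309 abundant entries. After upper-quartile scaling, which shifted the median of all entries by -0.13, the members' median was -0.17, and mt-Cytb then passed as lower beside Cox7a1.

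**Figure D3:**
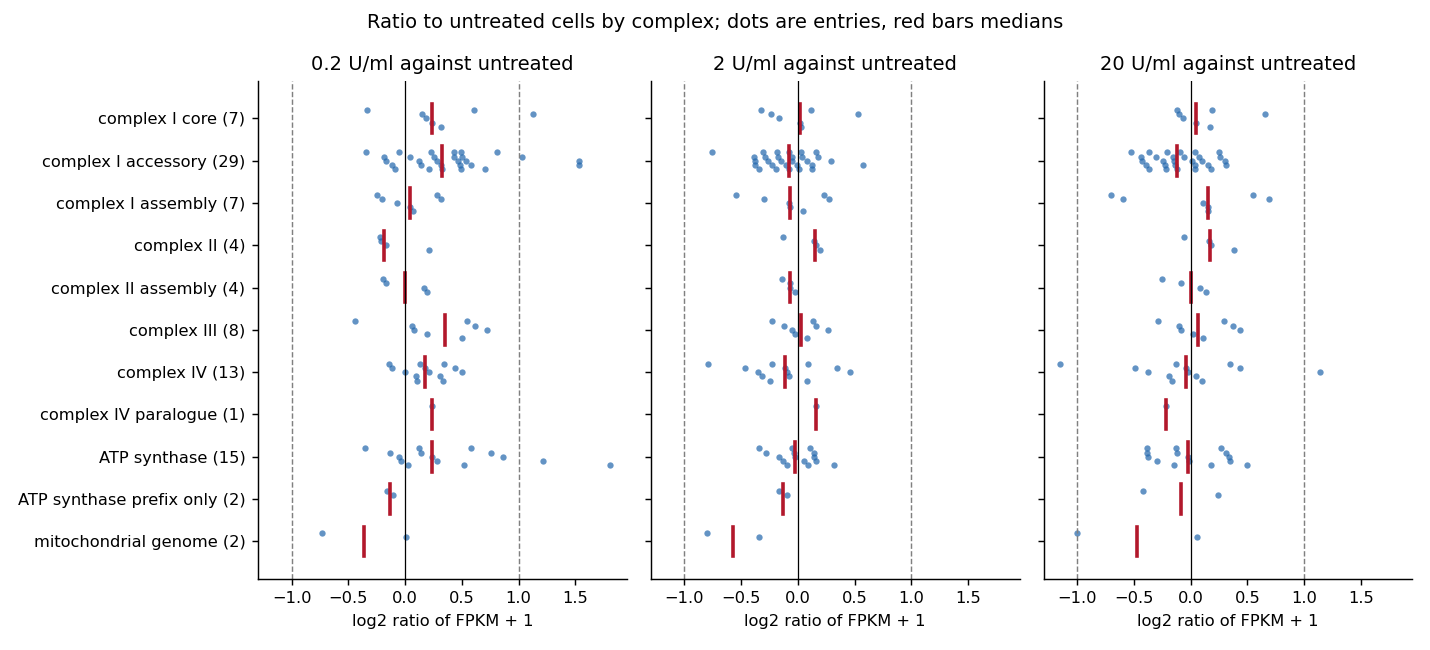
Log2 ratio of FPKM + 1 to untreated cells at 0.2, 2 and 20 U/ml for the 92 members used, by complex (number of entries in brackets), with dots for entries, red bars for medians and dashed lines at the size rule of 1. Past the lines lie 6 members at 0.2 U/ml, none at 2 U/ml, and Cox6a2 and Cox7a1 at 20 U/ml.

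Complex I, the NADH dehydrogenase, had 7 nuclear core subunits measured, and their median ratios were 0.24, 0.02 and 0.04 with rising dose. Ndufs3, a core subunit of the arm that leads electrons to ubiquinone (chromosome 2, 90894634 to 90904827), was at 106, 133, 153 and 168 FPKM. Its ratios were 0.32, 0.53 and 0.65, below the size rule but ordered by dose. Ndufs7, the most abundant core subunit in untreated cells, was at 240, 366, 261 and 273 FPKM. Ndufv1 had the lowest core ratio at 20 U/ml (-0.12), having the highest at 0.2 U/ml. The 3 core subunits of the NADH-oxidizing module (Ndufs1, Ndufv1 and Ndufv2) had a median of -0.10 at 20 U/ml.

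The 29 accessory subunits of complex I, which surround and stabilize the core, had medians of 0.32, -0.08 and -0.12. Their summed level was 7897, 11977, 7635 and 7081 FPKM. Ndufc1, the most abundant in untreated cells, was at 665, 942, 630 and 604 FPKM. Ndufs4, which is needed for assembly of the NADH-oxidizing module, had the highest ratio at 20 U/ml (0.31), at 46.5 against 37.4 FPKM. Ndufb11, of the membrane arm, had the lowest (-0.53), at 195, 201, 171 and 135 FPKM. It was the only accessory subunit past 0.5 in size at that dose.

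The 7 assembly factors named Ndufaf were far lower in level, with a median of 12.7 FPKM in untreated cells against 210 for the accessory subunits. Ndufaf3 was the most abundant, at 45.0, 54.9, 53.0 and 48.7 FPKM. Ndufaf6 had the highest ratio at 20 U/ml, at 11.8, 9.80, 11.2 and 19.7 FPKM (0.69), and Ndufaf7, a methyltransferase, the lowest, at 5.90, 7.61, 4.61 and 3.25 FPKM (-0.70). Both differed from untreated by more than 0.5 at the highest dose and by less at the others. Their group median at 20 U/ml was 0.15. Of 9 other complex I assembly factors, 0 passed in either direction, with a median of 0.05; Foxred1 was at 0.41 and Tmem70 at 0.30.

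Complex II, succinate dehydrogenase, is made of 4 nuclear subunits and carries no mitochondrial gene. Its medians were -0.19, 0.15 and 0.17. The median below 0 at 0.2 U/ml rests on 4 genes, of which Sdhb was above 0, and its difference from the other complexes was not tested. After quantile normalization the medians of ATP synthase (-0.14) and complex IV (-0.063) at that dose were below 0 as well. Sdha, the flavoprotein that oxidizes succinate, was at 159, 141, 145 and 153 FPKM (-0.06 at 20 U/ml). Sdhb, the iron-sulfur subunit, was at 194, 225, 222 and 253 FPKM (0.38 at 20 U/ml). The membrane anchors Sdhc and Sdhd were at 248 and 116 FPKM at 20 U/ml, against 218 and 103 FPKM untreated. All 4 subunits stayed within 0.5 of untreated at every dose. Upper-quartile scaling left the group median of the highest dose at 0.03 and took that of the lowest to -0.30.

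The 4 assembly factors of complex II had ratios at 20 U/ml from -0.25 for Sdhaf4, the most abundant at 36.9 FPKM in untreated cells and a chaperone of Sdha, to 0.14 for Sdhaf2, which puts the flavin into Sdha. Sdhaf1 and Sdhaf3 were near the filter, at 2.09 and 1.24 FPKM in untreated cells.

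In complex III, the cytochrome bc1 complex, the large and most of the small subunits differed in their pattern over dose. The 2 core proteins Uqcrc1 and Uqcrc2 and the Rieske iron-sulfur protein Uqcrfs1 had ratios between 0.29 and 0.44 at 20 U/ml. Uqcrc2 was at 56.1, 41.2, 61.8 and 76.4 FPKM, lowest at 0.2 U/ml and highest at 20 U/ml. Uqcrfs1 was at 74.5, 77.7, 78.6 and 96.6 FPKM. The 5 small subunits had a median of 0.55 at 0.2 U/ml and -0.08 at 20 U/ml. Of these, Uqcrb stayed nearly level, at 437, 461, 421 and 442 FPKM. Its ratio at 0.2 U/ml was 0.08, below that of the large subunit Uqcrc1 (0.20). Uqcrh, the hinge protein, was at 472, 781, 528 and 440 FPKM, and Uqcrq, the most abundant, at 932, 1432, 915 and 1007 FPKM. Uqcr11 had the lowest ratio of the complex at 20 U/ml, -0.29, at 594, 868, 547 and 485 FPKM. The small subunits, from 434 nt (Uqcr10) to 535 nt (Uqcrb), are also shorter than Uqcrc2 (1179 nt) and Uqcrfs1 (1363 nt). Uqcrc1 has a median of 533 nt over its annotated protein-coding transcripts, which need not be the length of the transcript expressed. The part of length in this split was not tested.

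Cytochrome c1 and cytochrome c do not carry the prefixes of the rule and were read from lists of partner genes. Cyc1, the heme subunit of complex III that hands electrons to cytochrome c, was at 57.7, 52.8, 69.9 and 93.5 FPKM (0.69 at 20 U/ml). Cycs, cytochrome c itself, passed the size rule at the highest dose, with 76.4 FPKM against 31.3 untreated (1.26). Among 19 electron carrier genes, which include ubiquinone synthesis, the other that passed was Pdss1, the enzyme that starts the ubiquinone side chain, at 11.9 against 5.21 FPKM untreated (1.05). The list's median was 0.07 and 0 were lower, and its 2 of 19 higher stand beside 6.51% of all entries. The electron carrier entry that holds Etfb, a subunit of the electron transfer flavoprotein, passed at 0.2 U/ml (1.45) and was at -0.86 at the highest dose. Of 6 partner and assembly genes of complex III, 0 passed, with Uqcc3 at -0.32 after Cyc1 in size.

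Complex IV, cytochrome c oxidase, had 13 of 17 nuclear entries above the filter, with medians of 0.17, -0.11 and -0.04. Cox6b1, its most abundant subunit, was at 1970, 2788, 1663 and 1727 FPKM. Cox7b, at 1124, 1018, 1195 and 1433 FPKM, and Cox5a, at 352, 447, 483 and 474 FPKM, had ratios of 0.35 and 0.43 at 20 U/ml. Both members past the size rule at the highest dose belong to this complex, and both are the heart and muscle forms of a subunit.

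Cox7a1 (chromosome 7, 30184144 to 30186078, plus strand) was at 59.8, 75.5, 34.2 and 26.4 FPKM, a ratio of -1.15 at the highest dose. Its widely expressed counterpart Cox7a2 was at 258, 299, 273 and 277 FPKM. Cox7a1 thus made up 18.8%, 20.1%, 11.1% and 8.70% of the sum of the 2 genes. Cox6a2 (chromosome 7, 128205435 to 128206387, minus strand) went the other way, at 3.60, 4.19, 4.85 and 9.16 FPKM, a ratio of 1.14. The authors' deposited comparison of treated with untreated cells gives this entry a wider span, 128154019 to 128223816. The part of other sequence in that span was not tested. Its counterpart Cox6a1 was at 1117, 1384, 1046 and 1020 FPKM, and Cox6a2 remained a small share of their sum, 0.321% untreated and 0.890% at the highest dose. Cox6b2, a testis form, was at 1.84, 2.86, 1.23 and 1.03 FPKM, at most 0.103% of its sum with Cox6b1. Cox8a, the form of subunit 8 in most tissues, was at 593, 549, 505 and 612 FPKM.

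Ndufa4, once assigned to complex I and now known as a subunit of complex IV (chromosome 6, 11900292 to 11907497), was at 622, 664, 449 and 479 FPKM, with ratios of 0.09, -0.47 and -0.38. AA467197, a paralogue also called Nmes1 that can take the place of Ndufa4 in complex IV, shares an entry with the microRNA gene Mir147. That entry was at 0.835, 0.974, 1.69 and 10.5 FPKM, a ratio of 2.65 at 20 U/ml and of 2.1 over the last step of dose. The level of the paralogue stayed well below that of Ndufa4, at 0.134% of the sum of both untreated and 2.15% at the highest dose. The other relative in the family of subunit 7a, Cox7a2l, was at 230, 272, 257 and 198 FPKM.

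**Figure D4:**
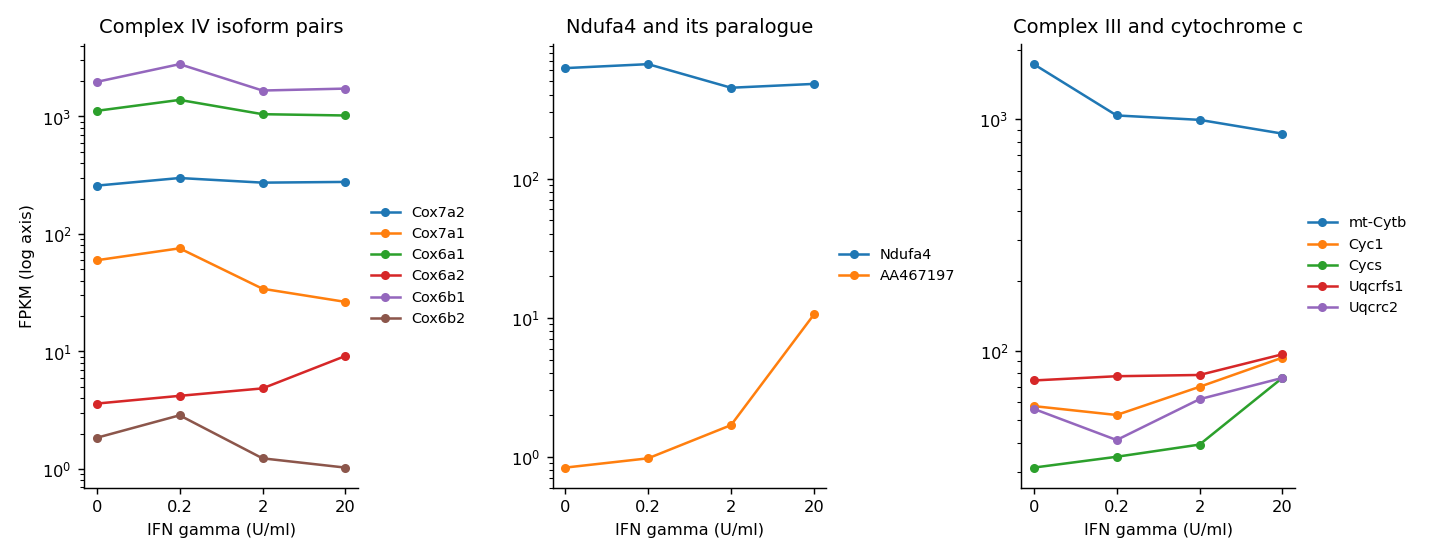
FPKM (log axis) against IFNγ dose in U/ml, spaced evenly, for complex IV isoform pairs, for Ndufa4 and its paralogue AA467197, and for mt-Cytb with complex III subunits and cytochrome c. Cox7a1 goes to 26.4 FPKM and Cox6a2 to 9.16 FPKM at 20 U/ml, AA467197 to 10.5 FPKM, and mt-Cytb from 1732 to 868 FPKM.

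Assembly factors of complex IV, which insert heme and copper or bring subunits together, were read as a list of their own. At the highest dose 3 of 24 passed as higher and 0 as lower, and the list's median was 0.09. Coa5 was at 72.8 FPKM against 28.7 untreated (1.31), Coa7, a heme-binding factor, at 43.8 against 17.2 (1.30), and Sco1, which helps to load copper, at 10.6 against 3.99 (1.22). A share of 3 in 24 was set beside 6.51% of all entries and was not tested. At 0.2 U/ml 2 others passed, named after their values were seen: Pet100 was at 1.33 and Cmc2 at 1.09, and at the highest dose they were at -0.55 and -0.61.

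ATP synthase had 15 nuclear entries, all above the filter, with medians of 0.24, -0.02 and -0.02. Their summed level was 8415, 15916, 8771 and 8100 FPKM, and Atp5e alone held 2039 and 7134 FPKM of the first 2 sums. The sign of the median at 0.2 U/ml turned under quantile normalization, to -0.14. Atp5b, the catalytic beta subunit (chromosome 10, 128083273 to 128090391), was at 968, 1065, 1007 and 1369 FPKM, with the highest ratio of the complex at 20 U/ml (0.50). Atp5a1, the alpha subunit, was at 338, 329, 372 and 428 FPKM (0.34). The lowest ratio was that of Atp5k (-0.39), followed by Atp5e, also -0.39.

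By sector, the 3 membrane subunits Atp5j2, Atp5k and Atp5l had a median of 0.58 at 0.2 U/ml and -0.37 at 20 U/ml, and the 4 of the peripheral stalk (Atp5f1, Atp5h, Atp5j and Atp5o) 0.52 and -0.07. The 5 subunits of F1 had medians of 0.14 and 0.18. Single members lay far from their sector's median at 0.2 U/ml, with Atp5j of the stalk at -0.13 and Atp5e of F1 at 1.81. Lengths were 321.5 to 544 nt for the membrane subunits, 421 nt for Atp5e, 1916 nt for Atp5b and 2572.5 nt for Atp5a1. The part of length in these medians was not tested. Atp5h, subunit d of the stalk, was at 752, 1272, 810 and 613 FPKM. The c ring is encoded by 3 genes for the same mature protein. Atp5g1 was at 225, 246, 252 and 280 FPKM, the entry of Atp5g2 and Mir688 at 222, 173, 207 and 200, and Atp5g3 at 500, 510, 492 and 602. Atp5g1 held between 23.8% and 26.5% of their sum. Atp5s, not counted as a subunit here, was at 3.82, 3.31, 3.30 and 2.61 FPKM, and Atp5sl, likewise not counted, at 14.9, 13.8, 13.8 and 17.8 FPKM. Of 5 partner genes of ATP synthase, 0 passed; Atpif1, the inhibitor of its reverse action, was at 576 FPKM at the highest dose against 909 untreated (-0.66), and the entry of the assembly factor Atpaf1 with Gm12847 at 0.46.

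The mitochondrial genome gave 2 usable entries. The cytochrome b entry, mt-Cytb with the transfer RNA gene mt-Tt (mitochondrial genome, 14145 to 15288), was at 1732, 1040, 995 and 868 FPKM. Cytochrome b is the heme-bearing core of complex III and its only subunit from this genome. The ratios were -0.74, -0.80 and -0.996, the last just short of the size rule, and they share the 1 untreated value. The nuclear partners Uqcrc1, Uqcrc2 and Uqcrfs1 were higher than untreated at 20 U/ml, as given above. All 8 nuclear subunits of complex III together had a median of 0.06 at that dose, with 5 above 0 and 3 below. The second entry merges mt-Nd1 and mt-Nd2 with both ribosomal RNAs and transfer RNAs, was at 4594, 4620, 3630 and 4786 FPKM, and cannot be read as complex I, since the ribosomal RNAs are part of it.

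The other lists of mitochondrial genes lay at or above the subunits at 20 U/ml. Nuclear subunits had a median of -0.03, with 35 of 76 above 0. The list of mitochondrial protein import and membrane genes, which is not limited to transport, had a median of 0.33, with 19 of 21 above 0 and 0 past the size rule. Tomm70a, an import receptor, was at 31.7 against 16.2 FPKM (0.93), and Vdac2, a channel of the outer membrane, at 323 against 203 FPKM (0.67). Mitochondrial ribosomal proteins had a median of 0.18, with 52 of 77 above 0; Mrpl3 (1.09) was the 1 that passed, and Mrps5 was at 0.83. Mrpl28, named after its values were seen, had passed at 0.2 U/ml (1.49) and was at -0.34 at 20 U/ml. In the list of mitochondrial genome expression, with a median of 0.09, Ppargc1b, a coactivator of respiratory genes, was the 1 of 19 that passed, at 1.29, 5.11, 1.92 and 4.87 FPKM (1.36), and its relative Pprc1 was at 0.83. Over all entries 51.1% lay above 0 and 6.51% passed as higher, so none of these 3 lists had a larger share past the size rule. Whether the lists differ from the subunits was not tested.

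**Figure D5:**
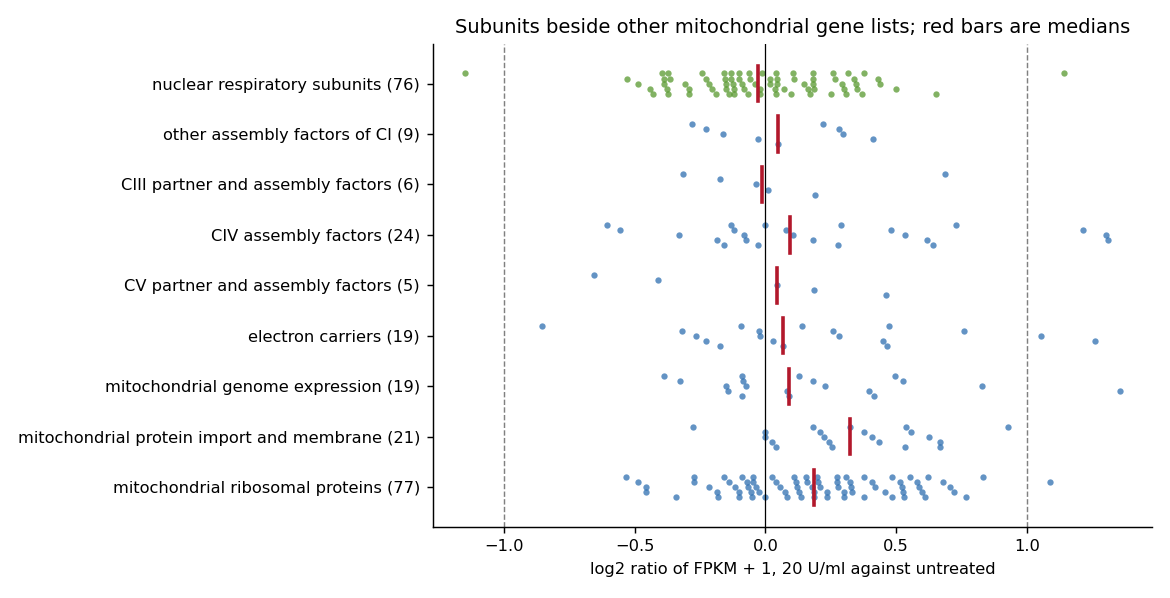
Log2 ratio of FPKM + 1 at 20 U/ml against untreated cells for 76 nuclear subunits (green) and 8 other lists of mitochondrial genes (blue), with medians as red bars and dashed lines at the size rule of 1. Medians run from -0.03 for the subunits to 0.33 for import and membrane genes.

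Steps between doses use the same values again. From 0.2 to 2 U/ml, 6 members were lower by the size rule and 0 higher, beside 6.26% lower and 1.51% higher of all entries. They were Atp5k (-1.497), Atp5e (-1.49), Ndufa2 (-1.45), Ndufv1 (-1.29), Cox7a1 (-1.12) and the entry of Atp5o and Donson (-1.03), the last at 402, 732, 357 and 398 FPKM. At the smaller size of 0.5, 32 members were lower (34.8%) and 1 higher, beside 15.9% and 8.07% of all entries. Abundant entries as a whole were closer to the members: of the 1309, 9.4% were lower and 2.67% higher by the size rule, and 27% lower and 7.72% higher at 0.5, with a median of -0.18. Of the abundant members 39.7% were lower at 0.5. Under quantile normalization Atp5e (-0.86) and the entry of Atp5o (-0.62) no longer passed, and with the trend on length and GC content removed Cox7a1 (-0.80) did not. With the trend on level removed as well, Atp5e (-0.70), Atp5k (-0.85), Cox7a1 (-0.85) and Ndufa2 (-0.98) lay inside the size rule, as did the Atp5o entry (-0.98) after upper-quartile scaling. The members' median was -0.25, and it was -0.021 after quantile normalization. The accessory subunits of complex I had the lowest median of the complexes, -0.51. From 2 to 20 U/ml, no member passed in either direction, where 2.9% of all entries were higher and 1.11% lower, and the median was 0.06. At the smaller size 3 members were higher and 4 lower, beside 10.1% and 6.98% of all entries. Atp5e (-0.70) and Ndufb7 (-0.69) had the lowest ratios of this step and Cox6a2 (0.80) and Ndufaf6 (0.76) the highest.

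Few members were ordered by dose. Values were highest at 0.2 U/ml in 51 of 92 members (55.4%), against 31.4% of all entries, at 20 U/ml in 29, in untreated cells in 11 and at 2 U/ml in 1. Among those with a mean of at least 100 FPKM it was 61.8% of members and 48.3% of all entries. After quantile normalization, a comparison chosen after seeing the data, 32 members were highest at 0.2 U/ml (34.8%), against 25.3% of all entries. Values of 6 members were higher at each step (6.52%, against 9.28% of all entries): Ndufs3, Ndufaf5, Uqcrc1, Uqcrfs1, Cox6a2 and Atp5g1. The 4 that were lower at each step (4.35%, against 6.54% of all entries) were mt-Cytb, Cox6c, Ndufaf2 and Atp5s. Cox6c, of complex IV, spanned only 562 to 503 FPKM, and Ndufaf2, at 32.3 FPKM untreated, had a ratio of -0.60 at 20 U/ml.

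At 20 U/ml, too, ratios of members went with length, with a Spearman rho of 0.52 over 85 members and 0.09 over all 10530 entries, so with the sign opposite to that at 0.2 U/ml. Members of 200 to 500 nt had a median of -0.26 and those of 1000 to 2000 nt one of 0.28, beside -0.16 and 0.00 over all entries of the same lengths. Cox7a1 (439 nt) and Cox6a2 (680 nt) kept their ratios with the trend on length and GC content removed, at -1.20 and 1.08. Whether length itself has a part in the members' ratios was not tested beyond these fits.

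In the authors' deposited table of treated against untreated cells, which names no dose, respiratory members were mostly lower. Of 93 members tested in the authors' deposited table, 75 were lower and 3 higher at a q-value under 0.05, with a median log2 fold change of -0.97, while 33.8% of all 12854 tested entries were lower and 35.1% higher. The authors' deposited table has 27 of 29 complex I accessory subunits lower (median -1.27), 13 of 15 of ATP synthase, 10 of 12 of complex IV, 6 of 8 of complex III and 3 of 4 of complex II. In the authors' deposited table Ndufa4 was at -1.55, Cox7a1 at -1.37, Ndufs3 at -1.37 and mt-Cytb at -0.67, whereas the FPKM of Ndufs3 was higher than untreated at all 3 doses. The member highest in the authors' deposited table was Cox7a2l (0.99), and the lowest Sdhaf4 (-4.19).

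The same table does not show the response to IFNγ that the FPKM values show: in the authors' deposited table Irf1 was at 0.38 (q = 0.0747), Gbp2 at 0.28 (q = 0.310) and Tap1 at -1.08. It names no dose, so its values for members were not matched with any group of the FPKM values. The authors' deposited table also gives values for entries listed at 0 FPKM: the merged entry of mt-Co1 to mt-Co3, mt-Atp6, mt-Atp8 and complex I genes was tested there, at -0.18 (q = 0.639), and mt-Nd6 at -0.55 (q = 0.0681).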

How the data were processed

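Reads were processed by the submitters with TopHat2 2.1.1, Cufflinks 2.1.1 and Cuffdiff 2.1.1 on mm10, as the submitters' processing notes state. FPKM values, per the file headers, were deposited as 1 value for each of 4 groups; for untreated cells the header gives no unit, and the range of values is that of the other groups. The deposited comparison of treated with untreated cells gives, per the file headers, a log2 fold change with its test statistic (score), p-value and q-value; it names no dose, and 2 further columns of values were not used. The sources used here do not say how each group's 3 libraries were combined, and depth is unknown, so no interval is given.

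From these values log2(FPKM + 1) differences were computed with Python 3.11.15 and pandas 2.3.3. They cover the 11580 entries with a mean of at least 1 FPKM and no group at 0. The reliability of the size rule's calls in these data was not tested. With 1 value per group no test was possible, and the size rule of 1 (with 0.5 as a description) took its place. Lengths, GC content and positions came from GENCODE M21 on GRCm38. A length is the median over a gene's annotated protein-coding transcripts, so it can differ from that of the transcript expressed.

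Named were members past the size rule at any dose, the highest and lowest ratio at 20 U/ml and the most abundant untreated gene of each member list, all mitochondrially encoded members, members listed at 0, isoform pairs and, per partner list, the 2 largest ratios in size; further subunits of a named group are given as examples. The members and lists were chosen with earlier results of these data known. Alternatives were the pseudocount, the filter, 3 scalings, merged entries, and removal of trends on length, GC content and level, the last chosen after seeing the data. Some genes and motifs are not reported here.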

Additional observations from a re-analysis of the deposited data

How the results depend on the processing

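Of the medians and counts of members recomputed under each alternative, 164 stayed within 0.1 of the median or 1.5 times the count, and 17 did not. Medians per complex moved by 0.1 or more in 58 cases and by less in 407, the former under upper-quartile scaling, quantile normalization and both trend fits. The median at 0.2 U/ml was 0.091 after upper-quartile scaling, -0.051 after quantile normalization, 0.034 with the trend on length and GC content removed and -0.050 with level removed too; members higher at that dose numbered 3 under quantile normalization and 3 with the level trend, and 2 were lower under quantile normalization. At 20 U/ml the median was -0.17 after upper-quartile scaling, and 2 members were lower after upper-quartile scaling, quantile normalization and centring on the median of all entries. From 0.2 to 2 U/ml the median was -0.021 after quantile normalization, -0.063 with length and GC content removed and 0.013 with level as well, where 1 member was lower. From 2 to 20 U/ml it was -0.052 after quantile normalization, under which 32 members had their highest value at 0.2 U/ml, a count added after seeing the data. By construction the trend fits used 85 members; the cause of the other differences was not tested. The 14 ratios of single genes past the size rule kept their sign under each alternative, and 8 of them were under 1 in size in at least 1. No paired analysis was possible because the table holds 1 value per group, and for the same reason no library could be left out. Depth is unknown, and no error can be set beside any ratio.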
